A study of Mus musculus with 6 samples.

Results

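Ferritin, heme oxygenase and 8 further genes that store iron or handle heme were followed in lung interstitial macrophages of mice treated with β-glucan. The 10 genes were chosen by symbol (Fth1, Ftl1, Ncoa4, Ireb2, Tfrc, Hmox1, Blvra, Blvrb, Flvcr1 and Flvcr2) and all 10 were found among the 21965 genes of the count table. Each of them passed the low-count filter that left 12305 genes to be tested. Interstitial macrophages are the macrophages of the lung tissue outside the airspaces. The cells came from C57Bl/6 mice aged 6 to 8 weeks, whose lungs were digested and stained with antibodies that are not named, and the gate is not given either. In the WGP group (3 libraries), mice received 1 mg of WGP, a particulate β-glucan from yeast cell walls, into the peritoneum, and in the PBS group (3 libraries) phosphate-buffered saline. The treatment is given as lasting 6 days, with lungs taken on day 7. No library is tied to a single mouse or to a pool, so p-values measure only how far these libraries spread, which may be technical. Libraries are called WGP 1 to 3 and PBS 1 to 3 by replicate number. The sample titles of both groups also carry the word Control, for which no meaning is assumed here.

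Macrophages take up iron with transferrin through the transferrin receptor and recover it from the heme of engulfed red cells. Heme oxygenase opens the heme ring, releasing iron, carbon monoxide and biliverdin, and biliverdin reductases turn biliverdin into bilirubin. Iron that is not used or exported is stored inside ferritin, a shell of heavy and light chains, and is recovered when the cargo receptor NCOA4 carries ferritin to the lysosome. Iron regulatory proteins bind hairpins called iron-responsive elements when iron is scarce. Binding in the leader of a transcript blocks its translation, as in ferritin, and binding in the trailer of the transferrin receptor transcript protects it from decay. Alveolar macrophages, the neighbouring airspace macrophages, are known for a high iron and ferritin content.

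Hairpins of this kind are shown because this control acts through them. A search of 1 principal GENCODE M21 transcript per gene (GRCm38) asked for a CAGTGN loop between 5 paired bases on each side. G with T was allowed as a pair, and a C had to stand before the first arm. Whether this C was unpaired was not checked. The search found such a hairpin in the 5′ UTR of Fth1 and Ftl1 and 4 times in the 3′ UTR of Tfrc. The other 7 genes held none by this rule. Among all genes 0.102% of 5′ UTRs and 0.514% of 3′ UTRs held one. A match describes the letters and does not show binding. The stretches read 5′ to 3′ on the transcript strand, with the loop in capitals.
Fth1, chr19:9982733-9982760, plus strand: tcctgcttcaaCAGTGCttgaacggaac
Ftl1, chr7:45459779-45459806, minus strand: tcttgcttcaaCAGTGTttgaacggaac
Tfrc, chr16:32631220-32631247, plus strand: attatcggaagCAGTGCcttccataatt
Tfrc, chr16:32631599-32631626, plus strand: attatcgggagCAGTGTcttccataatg
Tfrc, chr16:32631664-32631691, plus strand: tatatcggagaCAGTGAtctccatatgt
Tfrc, chr16:32631711-32631738, plus strand: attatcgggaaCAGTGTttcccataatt
The ferritin hairpins differ at 2 of 28 bases, C3T and C17T from Fth1 to Ftl1, counted from the first base printed. Read counts measure transcript amount, so the translational arm of this control is not seen in these data.

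After WGP, both ferritin chains, their lysosomal receptor Ncoa4, heme oxygenase Hmox1, biliverdin reductase Blvra, the transferrin receptor Tfrc and the transporter Flvcr2 were lower. The heme exporter Flvcr1 and the iron regulatory protein gene Ireb2 were higher. Of the 10 genes 2 rose, 7 fell and Blvrb did not pass. Of all genes tested 15.2% rose and 15.7% fell, and 31.0% were called in either direction (edgeR's quasi-likelihood test, Benjamini-Hochberg adjusted p under 0.05 over 12305 genes). The median log2 fold change was -0.53 over the 10 genes and -0.02 over all genes tested. In 9 of the 10 the WGP and PBS libraries did not overlap, which held for 48.1% of the genes tested. Leaving out PBS 1, PBS 2 or WGP 3 left 5 of the 10 called lower, and leaving out PBS 3 left 6. Levels below are CPM, read counts scaled to TMM-normalised library size, means are given ± SD with n = 3, and log2 fold changes are WGP over PBS ± SE.

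**Figure D1:**
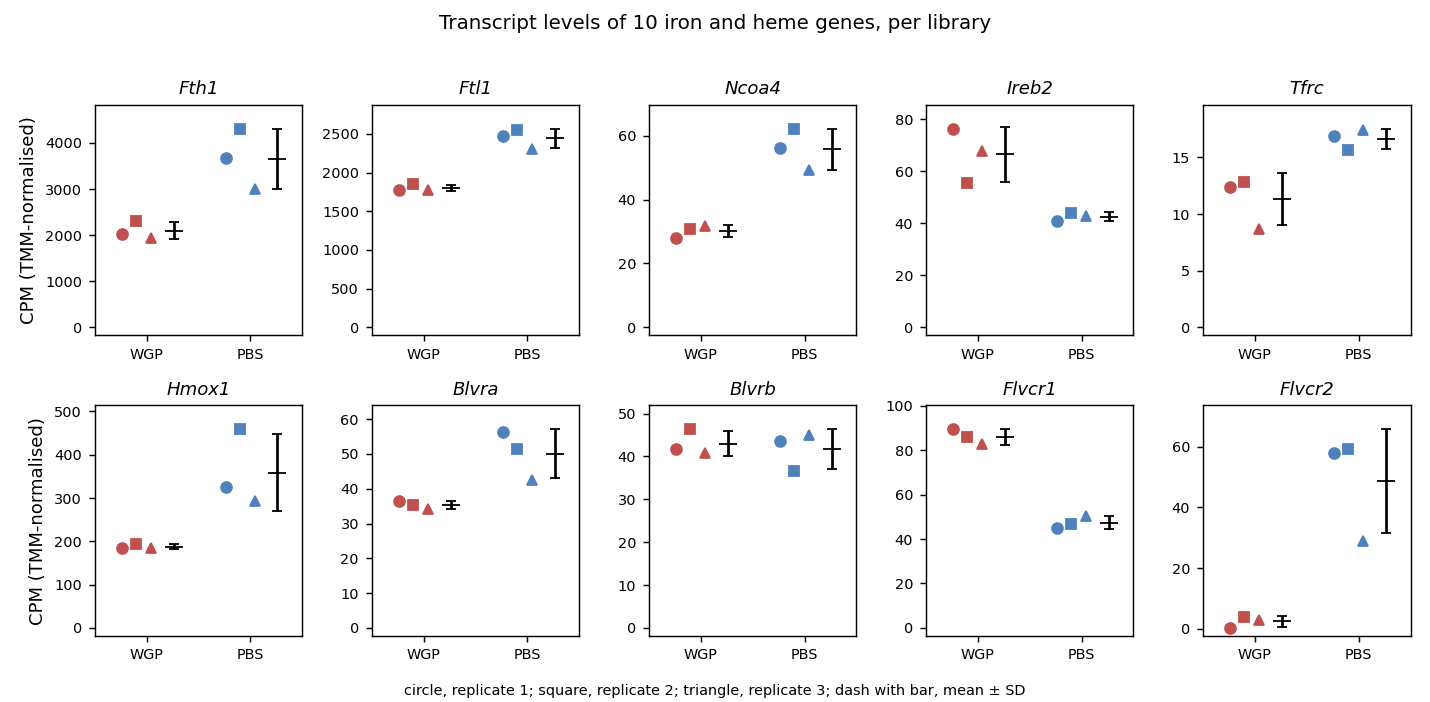
Transcript levels (CPM, linear axes from 0) of the 10 genes in the 3 WGP (red) and 3 PBS (blue) libraries, each symbol a replicate number, with mean ± SD beside them. Only for Blvrb do the WGP and PBS libraries overlap. Flvcr2 lies between 0.281 and 3.96 CPM in the WGP libraries and between 28.9 and 59.2 CPM in the PBS libraries.

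Ferritin was lower in each WGP library than in any PBS library. Fth1 encodes the heavy chain, which oxidises iron for storage (ENSMUSG00000024661, chromosome 19, 9980598 to 9985098, plus strand). Its level was 2028, 2297 and 1943 CPM in WGP 1, 2 and 3, against 3681, 4302 and 2996 CPM in PBS 1, 2 and 3. The PBS libraries spread more widely than the WGP libraries, but the lowest PBS value stayed above the highest WGP value. Fth1 averaged 2089.5 ± 185 CPM after WGP and 3659.7 ± 654 CPM after PBS, a log2 fold change of -0.81 ± 0.13 (adjusted p = 0.00178). Ftl1 encodes the light chain, which supports formation of the iron core (ENSMUSG00000050708, chromosome 7, 45457944 to 45459884, minus strand). It had 1774, 1846.5 and 1775 CPM in the WGP libraries, against 2473, 2551.5 and 2305 CPM in the PBS libraries. The groups were separate here too, with little spread in either. Its log2 fold change was -0.44 ± 0.07 (adjusted p = 0.000883). Together the 2 chains took 0.38 ± 0.026% of all counts after WGP and 0.63 ± 0.076% after PBS.

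The heavy chain differed more than the light chain. Within a library, the ratio of Ftl1 to Fth1 counts does not depend on scaling. It was 0.875, 0.804 and 0.914 in the WGP libraries, against 0.672, 0.593 and 0.769 in the PBS libraries. All WGP ratios lay above all PBS ratios. The mean difference in the log2 ratio was 0.36 (two-sided exact permutation test p = 0.1, the smallest that 3 against 3 libraries allow). Per kilobase of transcript, ferritin stood above the 8 other genes in both groups. Ftl1 reached 1858 ± 42.8 CPM per kilobase after WGP and 2524 ± 130 after PBS. Fth1 has principal transcripts of 929 and 1494 bases. It reached 2249 ± 199 after WGP and 3939 ± 703 after PBS on the shorter, and 1399 ± 124 and 2450 ± 437 on the longer, so the order of the chains after WGP depends on which transcript is taken. Processed pseudogenes of both chains exist in the annotation, and reads that matched a gene and a copy equally may have been lost in counting, so the ferritin levels are less certain than those of the other genes. Exons of Ftl1 also overlap 2 annotated genes that are not in the table, Gm10252 on the opposite strand over 355 bases and the miRNA gene Gm22133 on the same strand over 109 bases, and reads there cannot be assigned to Ftl1 alone.

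Ncoa4, the receptor that delivers ferritin to lysosomes (ENSMUSG00000056234, chromosome 14, 32159865 to 32179855), fell together with its cargo. It had 27.9, 30.6 and 31.7 CPM in the WGP libraries, against 56.2, 62.1 and 49.2 CPM in the PBS libraries. Every WGP library was lower than every PBS library. The log2 fold change was -0.89 ± 0.11 (adjusted p = 0.000239), and it lay between -0.98 and -0.82 when any 1 library was left out.

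The sensor and the uptake receptor moved in opposite directions. Ireb2 encodes iron regulatory protein 2, which binds iron-responsive elements when iron is low (ENSMUSG00000032293, chromosome 9, 54863789 to 54912530). It had 76.4, 55.4 and 67.6 CPM in the WGP libraries, against 40.8, 44.1 and 42.8 CPM in the PBS libraries. The PBS libraries lay close together and below all WGP libraries. Ireb2 rose, with a log2 fold change of 0.64 ± 0.12 (adjusted p = 0.00211). Tfrc, the receptor for iron-loaded transferrin (ENSMUSG00000022797, chromosome 16, 32608920 to 32632794), was the least expressed of the 10 in PBS libraries, at 3.41 ± 0.18 CPM per kilobase. It had 12.4, 12.8 and 8.70 CPM in the WGP libraries, against 16.9, 15.7 and 17.4 CPM in the PBS libraries. The groups did not overlap, and WGP 3 was lowest. Tfrc fell, with a log2 fold change of -0.56 ± 0.18 (adjusted p = 0.0362). Leaving out PBS 1 (adjusted p = 0.110), PBS 2 (0.0639), PBS 3 (0.0992) or WGP 3 (0.110) ended the call. With the summed level of 4 Y-linked genes as a covariate it was lost too (adjusted p = 0.147), while the other 8 calls were kept. The Y-linked sum ran from 205 to 227 CPM in the WGP libraries and from 9.79 to 179 CPM in the PBS libraries. Y-linked genes are read only from male cells, so the libraries may differ in sex make-up, within the PBS group and between the groups. Such a difference cannot be fully told apart from the treatment.

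**Figure D2:**
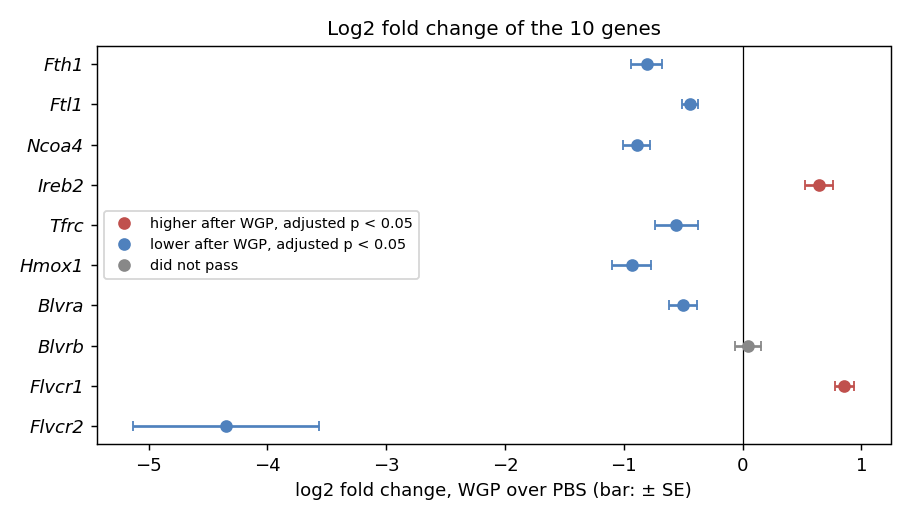
Log2 fold change, WGP over PBS, of the 10 genes with bars of ± SE. Red marks genes higher and blue genes lower after WGP at adjusted p under 0.05, and grey marks Blvrb, which did not pass. Flvcr2 stands far to the left at -4.35, while the other 6 genes that fell lie between -0.93 and -0.44.

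Of the heme oxygenase genes, Hmox1 transcripts were lower and Hmox2 transcripts higher, the second less firmly. Hmox1 encodes the inducible heme oxygenase (ENSMUSG00000005413, chromosome 8, 75093621 to 75100589). It had 185, 195 and 184 CPM in the WGP libraries, against 325, 459 and 293 CPM in the PBS libraries. The WGP libraries were nearly equal, the PBS libraries were not, and the groups did not overlap. Hmox1 averaged 188 ± 5.82 CPM after WGP and 359 ± 88.2 CPM after PBS, a log2 fold change of -0.93 ± 0.16 (adjusted p = 0.00484). Hmox2, the constitutive heme oxygenase, was 107 ± 11.2 CPM after WGP and 88.2 ± 6.58 CPM after PBS. Its log2 fold change of 0.28 ± 0.09 passed (adjusted p = 0.0417), but not with library sizes alone (adjusted p = 0.176), upper quartile scaling (0.103) or limma-voom (0.0506). Hmox2 was also lost with no robust estimation (0.0535), the replicate number as a block (0.0757) or the Y-linked covariate (0.0608). Of the 6 libraries WGP 1 alone could be left out without ending the call (0.0536 to 0.155 for the others).

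The biliverdin reductases parted. Blvra encodes the main biliverdin reductase of adult tissue (ENSMUSG00000001999, chromosome 2, 127070665 to 127097084). Its level was 36.5, 35.4 and 34.3 CPM in the WGP libraries, against 56.4, 51.4 and 42.6 CPM in the PBS libraries. The groups did not overlap, and its log2 fold change was -0.50 ± 0.11 (adjusted p = 0.00717). Blvrb, a flavin reductase that also acts on fetal biliverdin (ENSMUSG00000040466, chromosome 7, 27447978 to 27466144), had 41.8, 46.4 and 40.9 CPM in the WGP libraries, against 43.7, 36.5 and 45.1 CPM in the PBS libraries. These groups overlapped. The log2 fold change was 0.04 ± 0.11 (adjusted p = 0.805), and its sign turned with library sizes alone or upper quartile scaling. The ratio of Blvra to Blvrb counts was 0.873, 0.763 and 0.839 in the WGP libraries and 1.29, 1.41 and 0.944 in the PBS libraries. The mean log2 ratio differed by -0.54 (two-sided exact permutation test p = 0.1, the smallest possible).

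The transporters of the FLVCR family went opposite ways. Flvcr1 encodes a plasma membrane protein known to export heme and, more recently, to carry choline (ENSMUSG00000066595, chromosome 1, 191005847 to 191026158). It had 89.5, 85.9 and 82.7 CPM in the WGP libraries, against 44.8, 47.0 and 50.6 CPM in the PBS libraries. Both groups were tight and far apart. Flvcr1 rose 1.81-fold, a log2 fold change of 0.86 ± 0.08, with the smallest p of the 10 genes (adjusted p = 6.5e-05). Its exons overlap those of an antisense RNA, A230020J21Rik, over 809 bases, and the reads of the 2 can be told apart only if counting used strand, which is not stated.

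Flvcr2, its paralogue, has been linked to heme import and to choline transport in the vessels of the brain (ENSMUSG00000034258, chromosome 12, 85746539 to 85813585). It had 0.281, 3.96 and 2.85 CPM in the WGP libraries, against 57.9, 59.2 and 28.9 CPM in the PBS libraries. These values stand on 5, 75 and 52 reads in the WGP libraries and on 1192, 1140 and 608 reads in the PBS libraries. WGP 1 was the lowest WGP library and PBS 3 the lowest PBS library, and the groups were far apart. The log2 fold change was -4.35 ± 0.79 (adjusted p = 0.0161), larger in size than that of 99.5% of the genes tested. Leaving out PBS 1 (adjusted p = 0.0604), PBS 2 (0.0557) or WGP 3 (0.0560) ended the call. With WGP 1 left out the log2 fold change was -3.83, and with WGP 2 left out it was -4.94. Falls of like size were seen among the alveolar macrophage and lung epithelial markers described below (median log2 fold changes -3.27 and -3.41). In the alveolar list Plet1 and Cidec stood at -4.37. The ratio of Flvcr2 to Flvcr1 counts was 0.00314, 0.0461 and 0.0344 in the WGP libraries, against 1.29, 1.26 and 0.571 in the PBS libraries. The mean log2 ratio differed by -5.84 (two-sided exact permutation test p = 0.1, the smallest possible), between -6.55 and -4.61 when 1 library was left out.

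**Figure D3:**
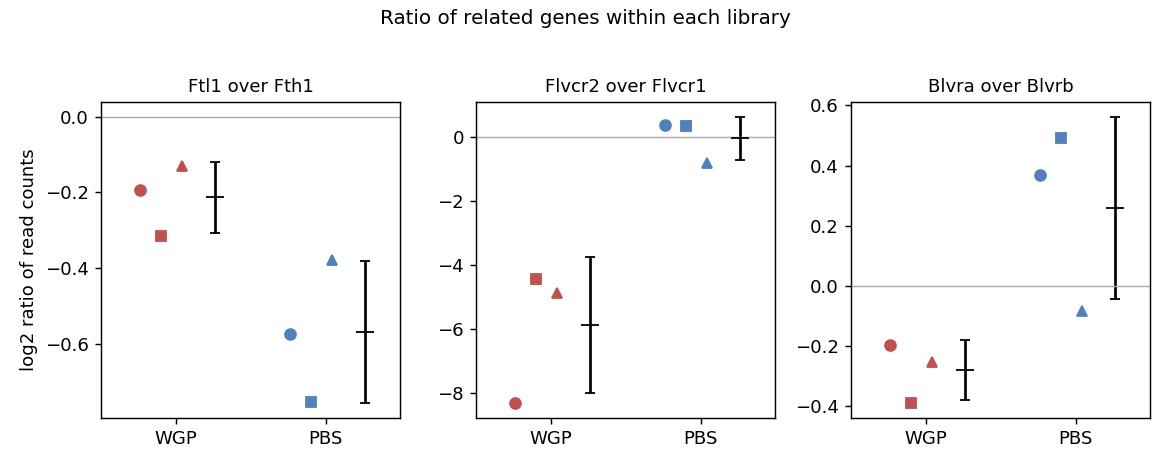
Log2 ratio of the read counts of related genes within each library, for the 3 WGP (red) and 3 PBS (blue) libraries, with mean ± SD. The WGP libraries lie above the PBS libraries for Ftl1 over Fth1 and below them for Flvcr2 over Flvcr1 and Blvra over Blvrb.

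The 250 bases before the start of the FLVCR genes are printed because this pair differed most. The set of RefSeq promoters used here (GRCm38.p6) covered 9 of the 10 genes, Hmox1 not among them. Both strands were searched for the antioxidant response element core TGACNNNGC, the AP-1 site TGANTCA, the E-box CACGTG, the GC box GGGCGG and the PU.1 core GAGGAA, shown in capitals.
Flvcr1, chr1:191026191-191026440, minus strand: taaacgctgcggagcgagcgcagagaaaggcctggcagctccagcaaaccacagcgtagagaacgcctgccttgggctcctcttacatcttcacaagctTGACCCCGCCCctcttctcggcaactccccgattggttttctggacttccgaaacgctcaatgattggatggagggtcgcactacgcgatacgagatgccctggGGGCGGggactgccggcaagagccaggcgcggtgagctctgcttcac
Flvcr2, chr12:85746289-85746538, plus strand: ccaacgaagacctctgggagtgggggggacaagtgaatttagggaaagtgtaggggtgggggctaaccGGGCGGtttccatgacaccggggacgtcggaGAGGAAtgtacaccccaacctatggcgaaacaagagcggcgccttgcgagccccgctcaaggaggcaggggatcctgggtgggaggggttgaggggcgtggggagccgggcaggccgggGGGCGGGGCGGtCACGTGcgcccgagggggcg
Flvcr1 held the antioxidant core from base -151, overlapped by a GC box on the other strand from base -146, and a further GC box from base -47. Flvcr2 held a PU.1 core from base -151, an E-box from base -20 and GC boxes from bases -182, -32 and -27, the last 2 overlapping. Of all 32851 promoters 10.2% held the antioxidant core, 6.7% the AP-1 site, 6.0% the E-box, 32.7% the GC box and 23.3% the PU.1 core. The antioxidant core was also found in Blvra and before 1 of the Ncoa4 starts, and none of these windows of the 9 genes held an AP-1 site. A match describes letters only.

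Genes known to control heme and iron genes changed in both directions. Of 14 tested, 4 rose and 5 fell, with a median log2 fold change of 0.08. This and each list count below stand beside the 15.2% of all genes tested that rose and the 15.7% that fell. Bach1, the heme-sensing repressor of Hmox1 and the ferritin genes, rose to 371 ± 14.8 CPM after WGP, against 287 ± 16.4 CPM after PBS (log2 fold change 0.37 ± 0.07, adjusted p = 0.00305). Keap1, which holds the activator NRF2 in check, rose by 0.63 ± 0.12 (adjusted p = 0.00318), and Usf1 (0.46 ± 0.07) and Hif1a (0.41 ± 0.10) rose as well. Hif1a did not pass when PBS 1 was left out (adjusted p = 0.061), with library sizes alone (0.0506) or with the Y-linked covariate (0.0928). Nfe2l2, which encodes NRF2, was 539 ± 58.7 CPM after WGP and 470 ± 56.7 CPM after PBS and did not pass (log2 fold change 0.20 ± 0.11, adjusted p = 0.187). Mafg, Mafk, Nr1h2 and Usf2 did not pass either. The genes that fell were Epas1 (-1.78 ± 0.18), Maff (-1.60 ± 0.22), Nr1h3 (-1.14 ± 0.20), Spic (-1.07 ± 0.23) and Nfe2l1 (-0.69 ± 0.09). Spic encodes the heme-induced factor of red pulp macrophages in spleen, and here its level was 7.19 ± 1.31 CPM after WGP and 15.1 ± 3.73 CPM after PBS.

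Among genes that carry iron across membranes or in the blood, 3 of 19 tested rose, 4 fell and 12 did not pass (median -0.21). Over all genes tested, 31% were called in either direction. Slc11a1, the metal transporter of the phagosome, rose to 489 ± 44.4 CPM after WGP, against 383 ± 16.8 CPM after PBS (log2 fold change 0.36 ± 0.08, adjusted p = 0.00697). The ferrireductase gene Steap3 (0.78 ± 0.19) and Mfsd7a (1.26 ± 0.13), a relative of the FLVCR genes, rose too. Transferrin, Trf, fell to 42.9 ± 4.43 CPM after WGP, against 88.5 ± 12.0 CPM after PBS (-1.04 ± 0.12, adjusted p = 0.000129). Slc22a17 (-2.62 ± 0.40), the metal importer Slc39a14 (-0.84 ± 0.16) and Dirc2 (-0.40 ± 0.12), another FLVCR relative, fell. Dirc2 did not pass when PBS 1 or 2 or WGP 1 or 2 was left out (adjusted p = 0.063 to 0.0876). The replicate number as a block ended its call too (0.0697). Slc40a1, which encodes the iron exporter ferroportin, was 28.1 ± 11.1 CPM after WGP and 38.2 ± 13.1 CPM after PBS and did not pass (-0.45 ± 0.38, adjusted p = 0.430).

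Heme capture and transport had 3 genes higher and 3 lower of 11 tested (median -0.30). Haptoglobin, Hp, which binds free hemoglobin and is also on the list of classical monocyte markers, rose to 789 ± 35.7 CPM after WGP, against 288 ± 57.2 CPM after PBS (1.45 ± 0.13, adjusted p = 9.2e-05). Lrp1, the receptor for heme bound to hemopexin, rose by 0.44 ± 0.07, and Hmox2 was the other. Pgrmc1, a heme-binding membrane protein, fell by -1.09 ± 0.12, and Abcc5 (-0.56 ± 0.08) and Slco2b1 (-2.17 ± 0.43) fell. Slco2b1 did not pass with any PBS library or WGP 2 left out (adjusted p = 0.0681 to 0.074), nor with the Y-linked covariate (0.0836). Cd163, the receptor for haptoglobin and hemoglobin, averaged 79.8 ± 55.5 CPM after WGP and 198 ± 39.0 CPM after PBS without passing (-1.31 ± 0.56, adjusted p = 0.161). Slc48a1, Abcg2, Abcc1 and Slc46a1 did not pass.

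Of 15 genes of heme synthesis 1 fell, 2 rose and 12 did not pass (median 0.06), where 31% of all genes tested were called in either direction. Alas1, the rate-limiting enzyme outside red cells, fell to 53.5 ± 5.09 CPM after WGP, against 101 ± 19.4 CPM after PBS (-0.92 ± 0.14, adjusted p = 0.00119). Slc25a38, the mitochondrial glycine carrier, was among those that rose (0.41 ± 0.11). Slc25a38 did not pass with PBS 1 (adjusted p = 0.0759) or WGP 3 (0.0615) left out. Of 8 genes of iron sensing and ferritin turnover, 1 rose, the autophagy gene Atg9a (0.37 ± 0.09), and 2 fell, Aco1 (-0.26 ± 0.08) and Skp1a (-0.33 ± 0.09). Aco1 encodes iron regulatory protein 1, the partner of the product of Ireb2, and had 57.3 ± 3.40 CPM after WGP and 68.6 ± 3.10 CPM after PBS (adjusted p = 0.0379). Aco1 did not pass with PBS 1 or 2 or WGP 1 or 3 left out (adjusted p = 0.0835 to 0.121) nor with the Y-linked covariate (0.0582), which also ended the call of Atg9a (0.0728). Skp1a did not pass with PBS 1 (0.074) or WGP 3 (0.0692) left out. Fbxl5, Cul1, Herc2, Nbr1 and Tax1bp1 were the 5 that did not pass.

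**Figure D4:**
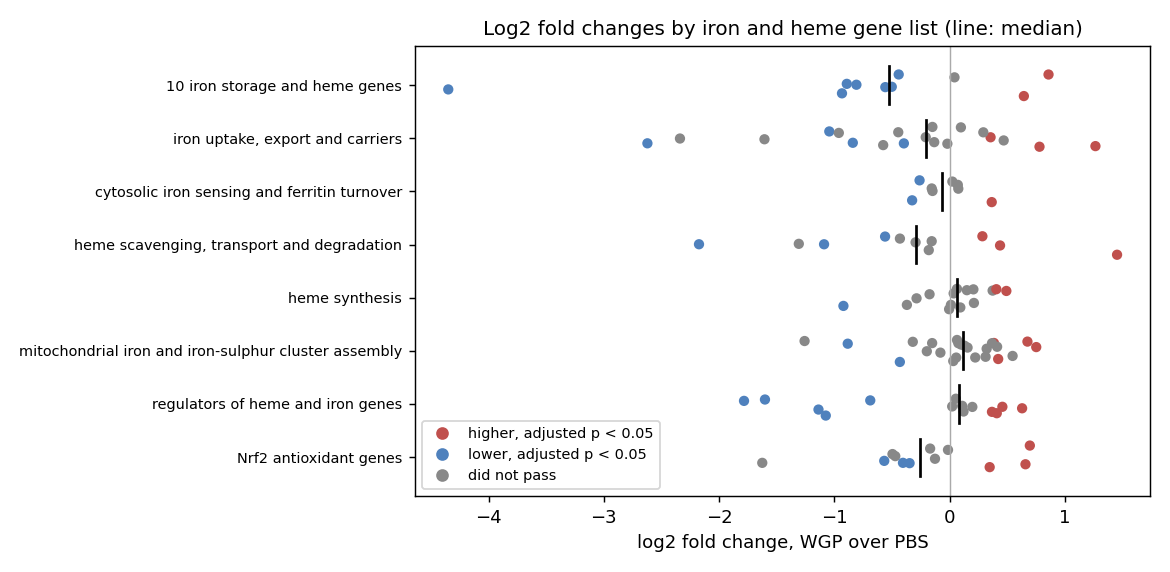
Log2 fold changes, WGP over PBS, of every tested gene in the 10-gene set and 7 related lists, with a black line at each median. Red genes were higher and blue genes lower after WGP at adjusted p under 0.05, and grey genes did not pass. The median is -0.53 for the 10 genes and lies between -0.30 and 0.11 for the other lists.

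Markers of other cell types differed between the groups. Of 20 alveolar macrophage markers 17 fell and Marco, Trim29 and Cd2 did not pass, and their summed level was 1315 to 1714 CPM in the WGP libraries and 5363 to 8102 CPM in the PBS libraries. The number that fell was 9 with PBS 1 or PBS 2 left out, 10 with WGP 3 left out and 10 with the Y-linked covariate. Of 14 classical monocyte markers 13 rose and Chil1 did not pass, with sums of 11884 to 15269 CPM in the WGP libraries and 5205 to 6001 CPM in the PBS libraries. Of 14 lung epithelial markers tested 10 fell, with sums of 25.1 to 91.5 CPM in the WGP libraries and 430.3 to 877 CPM in the PBS libraries, and 6 fell with PBS 1 or WGP 2 left out or with the Y-linked covariate. Of 12 endothelial markers 10 fell, with sums of 203 to 271 CPM in the WGP libraries and 537 to 555 CPM in the PBS libraries. Of 11 dendritic cell markers Zbtb46, Cd209a, Ccl22 and Siglech fell (sums of 209 to 234 CPM after WGP and 364 to 469 CPM after PBS), and the number that fell was 1 with the Y-linked covariate. Of 11 fibroblast and smooth muscle markers Inmt, Mfap4 and Mgp fell (25.1 to 83.7 CPM after WGP and 116 to 159 CPM after PBS), and 5 fell with WGP 1 left out. Of 15 T, NK and B cell markers Klrd1, Il7r and Cd22 fell (78.6 to 171 CPM after WGP and 186 to 277 CPM after PBS). Neutrophil sums overlapped, at 1742 to 3359 CPM in the WGP libraries and 1391 to 3179.5 CPM in the PBS libraries. Of 15 neutrophil markers Mmp8 rose, but not with PBS 1 or PBS 3 left out or with the Y-linked covariate, and 3 fell with PBS 3 left out or with that covariate. Erythroid and platelet markers summed to 133 to 398 CPM in the WGP libraries and 195 to 296 CPM in the PBS libraries, which overlapped. No marker of these lists that was in the table stood at 0 in every library. Of the 22 interstitial macrophage markers Cx3cr1, Csf1r, Fcgr1 and Itgam rose. The 6 that fell were Mertk (log2 fold change -3.01), Mrc1 (-2.08), Ms4a7, Apoe, Tmem176a and H2-Ab1, and 11 fell with WGP 1 left out. C1qa, C1qb and C1qc did not pass, though each was lower in every WGP library than in any PBS library. C1qa averaged 208 ± 105 CPM after WGP and 518 ± 56.3 CPM after PBS. Sums over the 22 markers were 9999 to 11249 CPM after WGP and 12747 to 13941 CPM after PBS. The largest parts were Csf1r (2965 CPM after WGP and 2357 after PBS), Apoe (1700 and 2637) and H2-Ab1 (1354 and 2536). Such a sum does not settle which cells the libraries hold. Mertk itself stood at 20.6 ± 3.72 CPM after WGP and 166 ± 36.9 CPM after PBS. In bulk libraries fewer cells of a type and less RNA per cell cannot be told apart.

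Within the PBS libraries, Fth1, Ftl1, Hmox1, Ncoa4 and Flvcr2 ranked the libraries as the alveolar macrophage sum did, which was 6824, 8102 and 5363 CPM in PBS 1, 2 and 3. This order was not particular to the alveolar list. The lung epithelial sum, at 568, 877 and 430.3 CPM, the endothelial sum, at 550.4, 555 and 537 CPM, the neutrophil sum, at 2282, 3179.5 and 1391 CPM, and the Y-linked sum, at 112, 179 and 9.79 CPM, ranked the PBS libraries likewise. Tfrc and Blvrb stood in the reverse order. Within the WGP libraries, where the alveolar sum was 1315, 1714 and 1502 CPM, Flvcr2 and Ftl1 followed its order and Ireb2 the reverse. This order was not particular to the alveolar list either. The endothelial sum, at 203, 271 and 267 CPM, and the dendritic cell sum, at 209, 234 and 232 CPM, ranked the WGP libraries likewise. So did the T, NK and B cell sum, at 78.6, 171 and 117 CPM. The classical monocyte sum, at 15269, 11884 and 13607 CPM, stood in the reverse order, as Ireb2 did. How many of all genes tested stand in these orders was not counted. The part of the marker lists in the results was not tested.

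**Figure D5:**
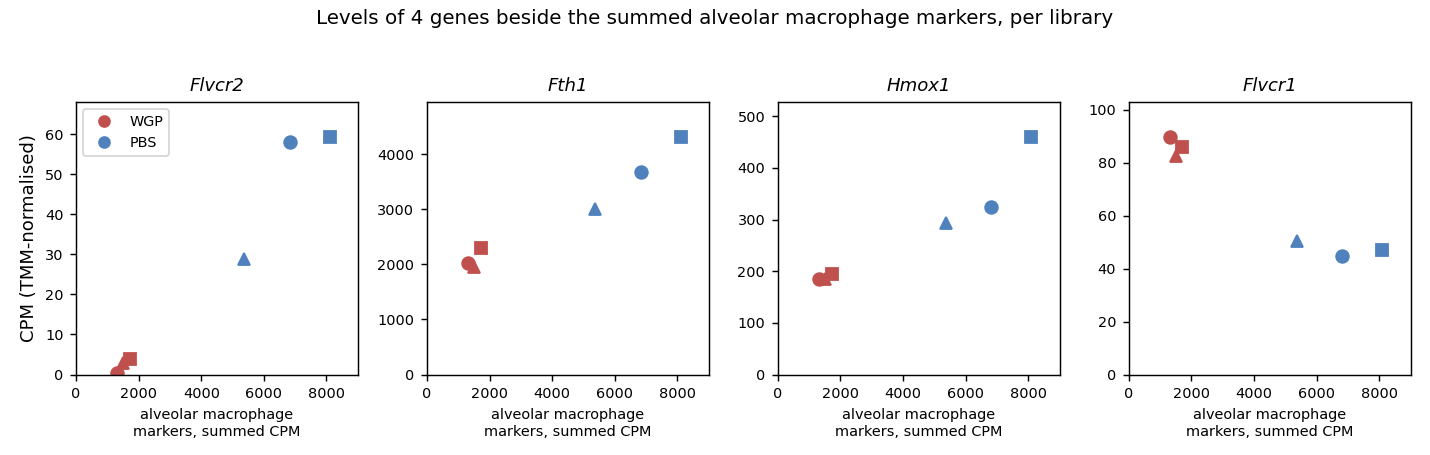
Level of Flvcr2, Fth1, Hmox1 and Flvcr1 (CPM, vertical axes from 0) against the summed level of 20 alveolar macrophage markers (CPM) in the 3 WGP (red) and 3 PBS (blue) libraries, each symbol a replicate number. Among the PBS libraries the first 3 genes stand in the order of the marker sum, and Flvcr1 does not.

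For the 3 genes with the smallest p, the tested genes of at least 5 CPM with the most similar pattern over the 6 libraries were sought among 9338 genes, by Pearson's r of log2 CPM. The libraries form 2 groups, so many genes score highly, and the values are a description. Flvcr1 was most like Gpr65 (r = 0.9985) and Eif4h (0.9975), Ncoa4 most like Syne1 (0.9997) and Ear2 (0.9990), and Ftl1 most like Tmbim1 (0.9997) and Ctsd (0.9996). Ear2 is on the alveolar macrophage list, and Ctsd encodes the lysosomal protease cathepsin D. Between 56 and 81 genes exceeded 0.99 for each of the 3.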

How the data were processed

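The authors deposited a table of raw read counts per Ensembl gene for 6 libraries. Per the submitters' processing notes HTSeq 0.10.0, FastQC 0.10.1 and the builds mm10 and GRCm38 were used. The sources used here do not give the aligner, annotation or strand setting. Totals were 18254678 to 20346517 counts per library. GENCODE M21 supplied symbols and positions for 99.9% of identifiers. Groups were fitted with edgeR 4.0.16 (R 4.3.3), using filterByExpr, TMM scaling, glmQLFit with robust estimation and the two-sided quasi-likelihood F test, with Benjamini-Hochberg adjustment over 12305 genes. The SE is the log2 fold change divided by the square root of F. The fit was tested on simulated data. Replicates differed beyond sampling noise (chi-square per degree of freedom 13.5 to 24.8). Alternatives were other scalings, filters and tools (DESeq2 1.42.0, limma 3.58.1), each library left out, a replicate block and a Y-linked covariate. Besides the 10 genes, the text names, in each iron or heme list, up to 4 called genes with the smallest p and the genes of any count of 5 or fewer, and, chosen after their values were seen, Slc40a1 and the antioxidant genes that did not pass. The genes and lists were chosen with earlier results of these data known. Length per kilobase is that of GENCODE principal transcripts. Ahsp, Trac and Ly6a2 of the marker lists were not analysed here. Values of 2 genes of the related lists are not reported here, though the list counts include them.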

Additional observations from a re-analysis of the deposited data

How the results depend on the processing

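Of the 10 genes, Fth1, Ftl1, Ncoa4, Ireb2, Hmox1, Blvra and Flvcr1 kept direction and call under all 17 alternatives. With the replicate number as a block, the log2 fold changes of Flvcr2 (-4.43, adjusted p = 0.0710) and Tfrc (-0.57, adjusted p = 0.0630) no longer passed. Deviations of same-numbered libraries correlated at -0.080, -0.121 and -0.087, and those of differently numbered libraries at -0.073 to 0.149. Such values cannot settle whether the numbers pair the samples. With the Y-linked covariate, Tfrc was -0.50 and did not pass. Leaving out 1 library gave -4.94 to -3.83 for Flvcr2, -0.66 to -0.40 for Tfrc and -0.05 to 0.10 for Blvrb, whose log2 fold change was -0.06 with library sizes alone and -0.02 with upper quartile scaling. Among all genes, 1202 to 1753 were called higher and 1289 to 1964 lower without 1 library, against 1874 and 1935 with all 6. Library sizes alone gave 1236 higher, 33.4% of the calls in place of 49.2%, and shifted the median of all genes to -0.12. Paired differences of the log2 ratios under the replicate block have the same means by construction, so their agreement is no check. Their exact sign-flip permutation p was 0.25, the smallest that 3 pairs allow. The number of heme synthesis genes called higher fell to 0 without PBS 1 and to 1 without any other library, and that of sensing and turnover genes called lower to 0 without PBS 1 or WGP 3. Of 40 calls in the 7 related lists, 11 were lost without at least 1 library. The cause was not tested.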

Other observations

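Genes that handle iron in mitochondria and build iron-sulphur clusters had 4 of 24 tested higher, 2 lower and a median log2 fold change of 0.11. The counts of this list and the next stand beside 15.2% of all genes tested higher and 15.7% lower. The cluster scaffold gene Nubp1 (0.75 ± 0.18), the mitochondrial iron importer Slc25a28 (0.38 ± 0.09) and Isca2 (0.42 ± 0.13) were among those that rose, while the chaperone Hspa9 (-0.43 ± 0.09) and Lyrm4 (-0.88 ± 0.21) fell. Isca2 did not pass without PBS 1 or 2 or WGP 1 or 2 (adjusted p = 0.0773 to 0.115), nor with library sizes alone (0.111) or upper quartile scaling (0.0747). The replicate block (0.071) and the Y-linked covariate (0.0559) ended its call too.

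Of 12 antioxidant genes known as NRF2 targets or their partners, 3 rose and 3 fell (median -0.26). Gsr, glutathione reductase, rose to 853 ± 66.0 CPM after WGP, against 526 ± 24.7 CPM after PBS (0.70 ± 0.08, adjusted p = 0.000131), and G6pdx (0.66 ± 0.08) and Gpx4 (0.35 ± 0.08) rose. Cat (-0.40 ± 0.08), Prdx1 (-0.35 ± 0.10) and Srxn1 (-0.57 ± 0.17) fell. With PBS 1, PBS 2 or WGP 3 left out, Prdx1 (adjusted p = 0.0628 to 0.0779) and Srxn1 (0.0672 to 0.132) did not pass, and Srxn1 did not pass with WGP 2 left out (0.0854). Gclm, Gclc, Slc7a11, Txnrd1, Nqo1 and Me1 did not pass.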
